A study of Saccharomyces cerevisiae with 9 samples.

Results

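Peroxisomes are the only site of fatty acid β-oxidation in budding yeast. Peroxins, the PEX proteins, build and divide the organelle and import its enzymes, and the oxidation enzymes shorten acyl-CoA chains inside it. Genes of the oxidation enzymes are known to be repressed on glucose and induced on oleate, the latter through a pair of zinc-cluster activators, Oaf1 and Pip2. The genes described here are those with a PEX symbol, plus 15 genes for oxidation enzymes, their transporters, regulators and redox partners, each of which had to be the one Saccharomyces cerevisiae gene listed for a probe set. This gave 40 genes with 1 probe set each, 25 of them PEX genes, of 5449 S. cerevisiae genes with a listed probe set. Other PEX genes were not analysed here. All 40 genes passed the filter on dim probe sets, which left 5396 genes for testing. POT1 passed through its frozen arrays, since its unfrozen mean lay below the filter.

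The study concerns freezing and thawing of the haploid laboratory strain BY4741, with copper homeostasis in its title. Cells of every group were grown in the glucose medium YPD at 30 °C to log phase (OD600 of 1), washed, and suspended in distilled water. The unfrozen group was taken at 0 h, and the other groups spent 24 h or 48 h frozen at -30 °C before a thaw of 10 min in water at 30 °C. No thaw is given for the unfrozen group. In comparisons with it, freezing, thawing and the time held therefore cannot be told apart, and "after freezing" below covers all of these. Each group has 3 single-colour Affymetrix arrays, 9 in all, hybridised with RNA enriched for poly(A) tails. The labels name independent triplicates in one place and an analysis of fewer independent experiments in another, so the p-values reflect how far these arrays vary, and some of that variation may be technical. Since RNA comes from whole cultures, fewer cells that express a gene and less of its RNA per cell cannot be told apart.

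Signals are given as scaled log2 intensities, with the S. cerevisiae probe sets of every array brought to 1 shared median. The background threshold was 2.21, the 95th percentile of the means of probe sets for the fission yeast Schizosaccharomyces pombe, an organism not in these samples. Differences are frozen minus unfrozen on this scale, with standard errors (SE) and two-sided Benjamini-Hochberg adjusted p from a limma fit over all genes tested. A gene was called where its adjusted p was under 0.05. The deleted locus URA3 stayed below the threshold on all 9 arrays, and the a-cell genes MFA1, MFA2, STE2, STE6, BAR1 and ASG7 were above it on all 9. The deleted loci LEU2 and MET17 were above it on 5 arrays each, and reached 4.19 and 3.48. A signal above the threshold but within that range thus does not by itself show that a gene was expressed. The unfrozen signals of POX1 and CAT8, and most signals of PEX18, lay in that range. Of the alpha-cell genes, MF(ALPHA)1 averaged 2.42, and MF(ALPHA)2, STE3 and SAG1 averaged 4.42, 5.83 and 7.71. MF(ALPHA)2, STE3 and SAG1 were above the threshold on all 9 arrays and reached 4.99, 6.71 and 8.73. BY4741 is a MATa strain. If these alpha-cell genes are silent in it, the same limit extends to those values, and every POT1 signal lay below the highest of them. Whether they are silent was not tested. The median deposited intensity was lowest, 201, for unfrozen replicate 2 and highest, 726, for replicate 3 of the 48 h group, and the number of arrays limits the precision. Ribosomal RNA control probe sets stood higher in the frozen groups. Their median stood at 6.41 ± 0.84 before freezing, against 9.35 ± 1.28 after 24 h and 9.07 ± 1.24 after 48 h (SD, n = 3). For each frozen time the exact two-sided permutation p was 0.1, which is as low as groups of 3 can reach. The highest unfrozen array stood at 7.02 and the lowest frozen array at 7.64. Fits with this signal as a covariate, given below, therefore cannot separate it from freezing. The part of this shift in the results below was not tested. The 3′ minus 5′ signal of 7 housekeeping control genes ran from 1.23 to 1.33 in unfrozen arrays and from 0.86 to 1.47 in frozen arrays.

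POT1 and SPS19 were the genes of this group called higher after freezing, at both times, and no gene of the group was called lower. POT1 encodes the thiolase of the last step of the oxidation cycle, and SPS19 the dienoyl-CoA reductase needed for unsaturated fatty acids. At 24 h, 2 of 40 genes were called higher, where 0.797% of all genes tested were, and 0 were called lower, where 0.204% were. At 48 h, 2 of 40 were called higher, against 2.09% of all genes, and 0 lower, against 0.815%. At an unadjusted p under 0.05, 5 of 40 were higher at 24 h, against 6.8% of all genes, and 4 of 40 at 48 h, against 9.97%. Below that p, 0 of 40 were lower at either time, against 3.93% and 6.45% of all genes. The median difference over the 40 genes was 0.19 at 24 h and 0.17 at 48 h, beside -0.02 and -0.03 over all genes tested.

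POT1 (YIL160C) had scaled signals of 1.83, 1.64 and 2.31 in unfrozen replicates 1 to 3. It stood at 4.60, 6.22 and 6.57 in the 24 h arrays and at 5.33, 5.88 and 6.81 in the 48 h arrays. Only 1 of the 3 unfrozen arrays was above background, and every frozen array was, with a gap of more than 2 log2 units between the highest unfrozen and the lowest frozen value. In intensities as deposited, POT1 ran from 1.78 to 4.72 in unfrozen arrays and from 20.9 to 231 in frozen arrays. Because its unfrozen mean of 1.93 lay under the background threshold, its rise is given as a bound, taken against the higher of the threshold and the signal on each unfrozen array. Against that floor POT1 rose by at least 3.55 at 24 h, or 11.7-fold. At 48 h it rose by at least 3.76, or 13.6-fold. The bound holds only for this threshold, since the deleted loci LEU2 and MET17 reached 4.19 and 3.48 on single arrays. The alpha-cell genes STE3 and SAG1 reached 6.71 and 8.73. The test was of the fitted differences, 3.87 ± 0.54 and 4.08 ± 0.54, which use the unfrozen signals as measured (limma adjusted p = 0.0121 and 0.00439). With a pseudocount of 16, which damps low signals, they were 1.73 and 1.85, and the 24 h call was lost (limma adjusted p = 0.0952 and 0.0443). The 24 h call was lost without replicate 1 or 2 of the unfrozen group, or 2 or 3 of the 24 h group (differences from 3.48 to 3.82, limma adjusted p = 0.0803, 0.0695, 0.0577 and 0.0646). Over all genes these fits called 3, 5, 18 and 8 higher at 24 h, against 43 with all arrays. The call at either time was lost without replicate 2 in all groups (limma adjusted p = 0.588 and 0.264), a fit that called 0 of all genes at either time. With the ribosomal RNA signal as a covariate the differences were 2.67 and 2.99 (limma adjusted p = 1 and 0.464), a fit that called 0 of all genes at either time, with 139 and 252 at an unadjusted p under 0.05.

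SPS19 (YNL202W) had signals of 5.60, 5.89 and 6.55 in unfrozen arrays. It reached 7.60, 7.59 and 7.47 at 24 h and 8.0, 7.16 and 7.38 at 48 h, so that no frozen array overlapped the unfrozen ones. The SD of the 24 h arrays, 0.07, was small beside that of the unfrozen arrays, 0.49. SPS19 rose by 1.54 ± 0.28 at 24 h, which is 2.91-fold, and by 1.5 ± 0.28 at 48 h, which is 2.83-fold (SE, n = 3 per group, limma adjusted p = 0.0317 and 0.0212). Its 24 h call was lost without any 1 of unfrozen replicates 1 and 2, the 3 frozen 24 h arrays or frozen 48 h replicate 2 (limma adjusted p from 0.0542 to 0.173), and its 48 h call without unfrozen replicate 1 or 2 (limma adjusted p = 0.104 and 0.115). It was lost at both times without replicate 1 or 2 in all groups, in the values as deposited and with the ribosomal RNA covariate, with differences from 1.05 to 1.92 in these fits. The 24 h call of SPS19 was also lost with scaling over every probe set (1.21, limma adjusted p = 0.0555) and with a pseudocount of 16 (1.28, limma adjusted p = 0.0513), and its 48 h call with only the groups compared in the fit (limma adjusted p = 0.0696).

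The other enzymes of the cycle lay higher in frozen arrays without passing the test. POX1, the acyl-CoA oxidase of the first step, had signals of 4.18, 3.71 and 3.68 unfrozen, 4.48, 4.90 and 6.03 at 24 h, and 4.93, 5.55 and 6.21 at 48 h. All 6 frozen values of POX1 lay above the unfrozen ones, and replicate 3 was highest at each frozen time. Its differences were 1.28 ± 0.45 at 24 h and 1.71 ± 0.45 at 48 h (limma adjusted p = 0.298 and 0.0823). The 48 h difference of POX1 passed in 1 of 25 alternatives, with replicate 3 as a batch term (limma adjusted p = 0.0368), and not with the replicate block (limma adjusted p = 0.0528). That batch term also covers unfrozen replicate 3. Its deviations from the group mean correlated with those of frozen replicate 3 at -0.117 (24 h) and -0.0686 (48 h). FOX2, which carries out the middle steps of the cycle, had signals of 7.71, 7.24 and 8.22 unfrozen, 8.50, 8.0 and 8.39 at 24 h, and 8.34, 8.09 and 8.36 at 48 h. The FOX2 signal of unfrozen replicate 3 lay within the frozen range. Its differences were 0.57 ± 0.25 and 0.54 ± 0.25 (limma adjusted p = 0.443 and 0.309). POX1 and FOX2 had unadjusted p of 0.0172 and 0.0422 at 24 h, and 0.00345 and 0.0522 at 48 h.

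**Figure D1:**
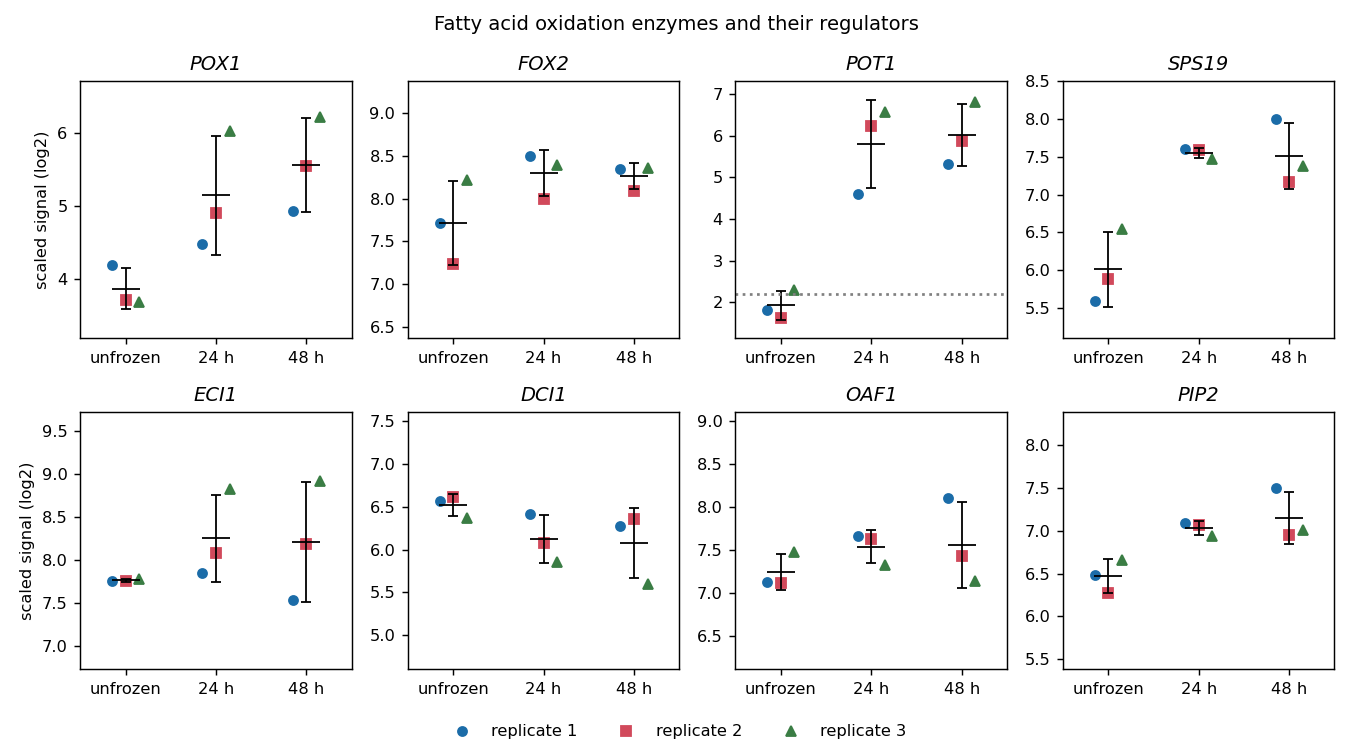
Scaled log2 signal (vertical axis, 1 panel per gene) in unfrozen, 24 h and 48 h arrays, with 1 point per array, marked by replicate number, and black bars for mean ± SD (n = 3). The dotted line in the POT1 panel is the background threshold of 2.21. POT1, SPS19, POX1 and PIP2 show no overlap between frozen and unfrozen arrays, while ECI1 and DCI1 spread apart mainly in replicate 3.

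Eci1 and Dci1 are related isomerases of the auxiliary reactions for unsaturated chains. ECI1 had nearly equal signals in unfrozen arrays, 7.75, 7.75 and 7.78, and spread to 7.85, 8.08 and 8.83 at 24 h and to 7.53, 8.19 and 8.92 at 48 h. Its differences were 0.50 ± 0.34 and 0.45 ± 0.34 (limma adjusted p = 0.692 and 0.556). DCI1 had signals of 6.57, 6.61 and 6.37 unfrozen, 6.42, 6.08 and 5.86 at 24 h, and 6.27, 6.36 and 5.60 at 48 h. Its differences were -0.40 ± 0.25 and -0.44 ± 0.25 (limma adjusted p = 0.648 and 0.434). ECI1 was thus highest, and DCI1 lowest, in the replicate 3 array of each frozen time. TES1, an acyl-CoA thioesterase, ranged from 7.12 to 7.45 unfrozen and from 6.57 to 8.19 over the frozen arrays, with differences of 0.29 ± 0.38 and 0.28 ± 0.38 (limma adjusted p = 0.832 and 0.759).

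None of the 4 genes for entry of fatty acids into the peroxisome passed the test. PXA1 and PXA2 together encode the transporter that brings long-chain acyl-CoA into the organelle. PXA1 had signals of 6.92, 6.65 and 7.41 unfrozen, 7.55, 6.98 and 7.87 at 24 h, and 6.77, 7.43 and 7.93 at 48 h. PXA2 had signals of 5.61, 5.55 and 5.99 unfrozen, 5.89, 5.84 and 6.46 at 24 h, and 5.84, 6.13 and 6.82 at 48 h. For both genes the frozen and unfrozen arrays overlapped and the frozen replicate 3 arrays were highest. Their differences were 0.47 ± 0.33 and 0.35 ± 0.29 at 24 h, and 0.38 ± 0.33 and 0.54 ± 0.29 at 48 h (limma adjusted p from 0.403 to 0.76). FAA2, which activates medium-chain fatty acids, lay between 6.82 and 7.09 unfrozen and between 6.93 and 7.33 frozen. ANT1, the carrier that supplies the organelle with ATP, lay between 9.34 and 9.58 unfrozen and between 9.12 and 9.86 frozen. The differences of FAA2 were 0.20 ± 0.18 and 0.18 ± 0.18, and those of ANT1 were -0.15 ± 0.20 and -0.06 ± 0.20 (limma adjusted p from 0.663 to 0.921).

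The redox genes differed from each other in spread. IDP3 encodes the peroxisomal isocitrate dehydrogenase that makes the NADPH used by Sps19. It had signals of 5.53, 5.64 and 5.98 unfrozen, 6.04, 6.14 and 7.39 at 24 h, and 5.73, 6.49 and 7.65 at 48 h. The replicate 3 arrays were more than 1 log2 unit above the other arrays of their frozen group. Its differences were 0.80 ± 0.48 and 0.90 ± 0.48 (limma adjusted p = 0.618 and 0.398). MDH3, the peroxisomal malate dehydrogenase that reoxidises NADH, lay between 10.37 and 10.94 in unfrozen arrays and between 10.47 and 10.86 in frozen arrays, with differences of -0.03 ± 0.19 and 0.01 ± 0.19 (limma adjusted p = 0.969 and 0.99).

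Of the 2 activators, neither passed the test. PIP2 had signals of 6.48, 6.27 and 6.66 unfrozen, 7.09, 7.07 and 6.94 at 24 h, and 7.5, 6.95 and 7.01 at 48 h, with no overlap. Its differences were 0.56 ± 0.20 and 0.69 ± 0.20 (limma adjusted p = 0.307 and 0.118). OAF1 had signals of 7.13, 7.11 and 7.48 unfrozen, 7.66, 7.63 and 7.32 at 24 h, and 8.11, 7.43 and 7.14 at 48 h, which overlap at both times. Its differences were 0.30 ± 0.25 and 0.32 ± 0.25 (limma adjusted p = 0.756 and 0.565).

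**Figure D2:**
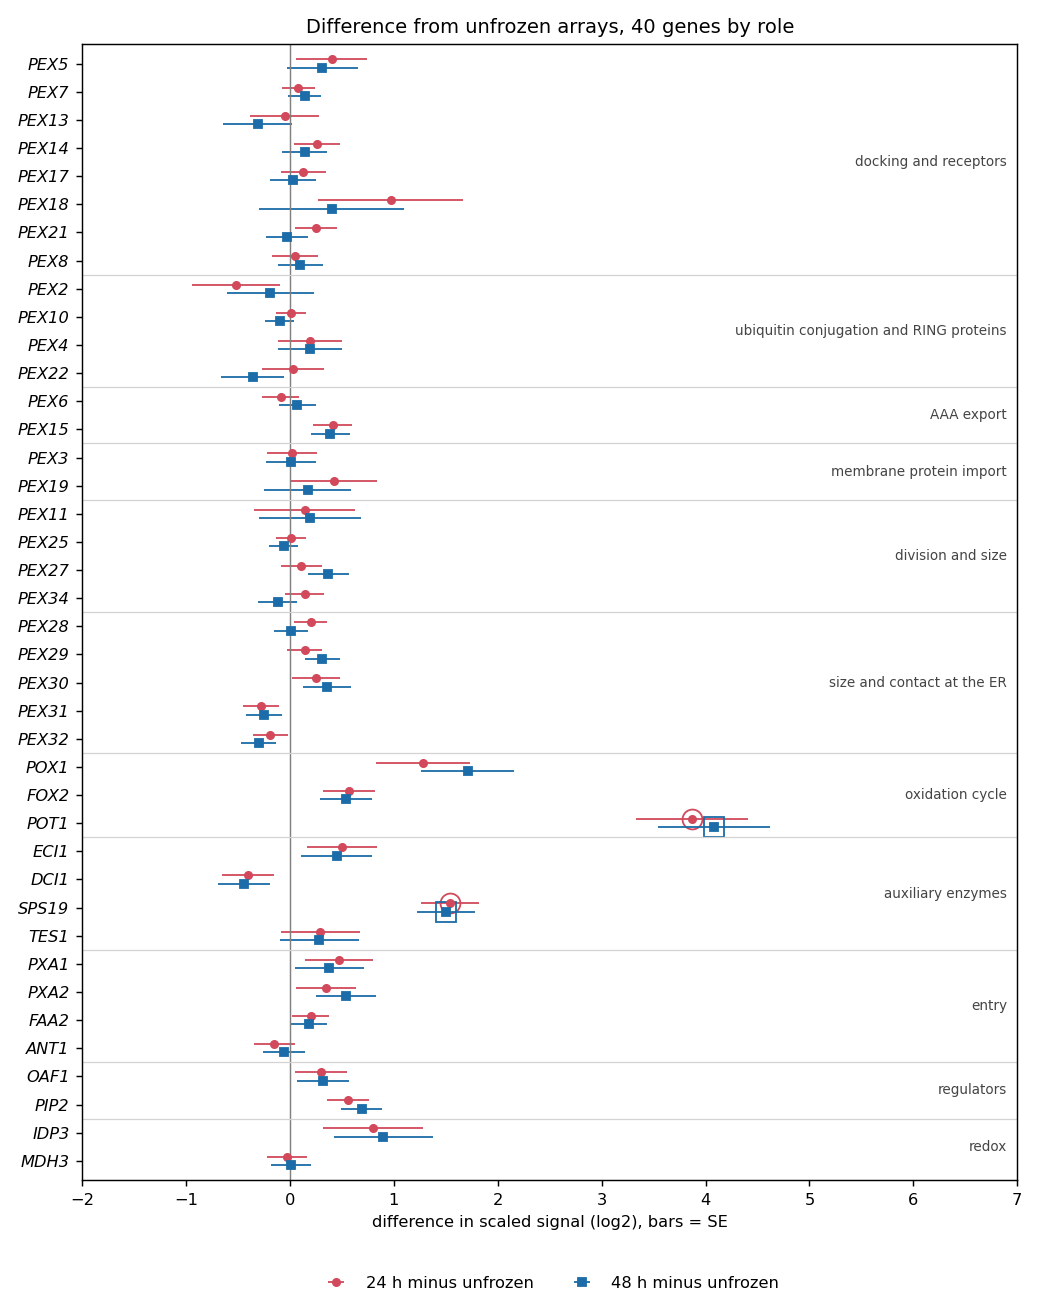
Difference from unfrozen arrays on the log2 scale (horizontal axis, bars are SE, n = 3 per group) for the 40 genes, grouped by role, at 24 h (circles) and 48 h (squares). Larger open symbols mark adjusted p under 0.05 and surround POT1 and SPS19 at both times. For POT1 the fitted difference is drawn, of which the text gives the bound. The PEX genes, in the upper groups, lie between -0.52 and 0.97.

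The 25 PEX genes were called neither higher nor lower at either time. That count is near the background, where 0.797% of all genes were called higher and 0.204% lower at 24 h, and 2.09% and 0.815% at 48 h. Their median difference was 0.13 at 24 h (range -0.52 to 0.97) and 0.07 at 48 h (range -0.36 to 0.40), and their lowest limma adjusted p were 0.487 and 0.341. Over the 15 other genes the medians were 0.47 and 0.45. At an unadjusted p under 0.05, 0 of 25 PEX genes were higher at 24 h or 48 h, against 6.8% and 9.97% of all genes, and 0 of 25 were lower, against 3.93% and 6.45%.

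Among receptors and docking proteins, PEX5 encodes the receptor for the carboxy-terminal targeting signal of most matrix enzymes. It had signals of 7.63, 7.22 and 7.14 unfrozen, 7.5, 7.57 and 8.13 at 24 h, and 6.93, 7.60 and 8.38 at 48 h. The differences of PEX5 were 0.40 ± 0.34 and 0.31 ± 0.34 (limma adjusted p = 0.757 and 0.683). PEX7 encodes the receptor for the amino-terminal signal, whose known cargo includes the thiolase Pot1. It had signals of 8.54, 8.53 and 8.70 unfrozen, 8.77, 8.76 and 8.48 at 24 h, and 8.97, 8.69 and 8.53 at 48 h. The differences of PEX7, 0.08 ± 0.16 and 0.14 ± 0.16, did not pass, in arrays where POT1 did (limma adjusted p = 0.896 and 0.707).

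Pex18 and Pex21 are paralogous co-receptors of Pex7. PEX18 had signals of 2.61, 3.37 and 2.94 unfrozen, 3.84, 3.85 and 4.14 at 24 h, and 1.56, 3.75 and 4.80 at 48 h. Its 24 h arrays lay above all unfrozen arrays, whereas its 48 h arrays spanned from below background, in replicate 1, to the highest of the 9 values, in replicate 3. The PEX18 differences were 0.97 ± 0.70 and 0.40 ± 0.70 (limma adjusted p = 0.711 and 0.825). PEX21 stayed between 6.70 and 7.32 on all arrays. The lowest difference of this role was that of the docking protein PEX13, -0.31 ± 0.33 at 48 h (limma adjusted p = 0.668). PEX13 had signals of 8.38, 8.12 and 7.84 unfrozen, 7.85, 7.91 and 8.44 at 24 h, and 7.10, 7.76 and 8.53 at 48 h, with the replicate 3 array highest at each frozen time and lowest before freezing. PEX14 and PEX17, of the docking complex, and PEX8, which joins that complex to the RING proteins, had differences between 0.03 and 0.26 at the 2 times.

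The RING proteins Pex2 and Pex10 ubiquitinate import receptors, and Pex4 is the ubiquitin-conjugating enzyme that Pex22 anchors at the membrane. PEX2 had signals of 8.95, 9.0 and 9.10 unfrozen, 8.87, 8.89 and 7.72 at 24 h, and 9.71, 8.84 and 7.94 at 48 h. Its lower 24 h mean (-0.52 ± 0.42, limma adjusted p = 0.749) rested on frozen replicate 3. PEX10 stayed between 8.83 and 9.19 on all arrays. PEX4 had signals of 5.88, 5.52 and 5.77 unfrozen, 6.17, 6.35 and 5.20 at 24 h, and 6.08, 6.04 and 5.62 at 48 h, which overlap at both times. PEX22 had the lowest 48 h difference of the PEX genes (-0.36 ± 0.30, limma adjusted p = 0.578), and its frozen 48 h replicate 1 stood at 7.24 against 8.18 and 8.50 in the other 48 h arrays.

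PEX15 was the PEX gene with the lowest p at both times. Pex15 anchors the ATPase that pulls receptors back out of the membrane. PEX15 had signals of 7.68, 7.77 and 7.73 unfrozen, 8.10, 7.91 and 8.38 at 24 h, and 7.99, 7.91 and 8.45 at 48 h, with no overlap at either time. Its differences were 0.41 ± 0.19 and 0.39 ± 0.19 (limma adjusted p = 0.487 and 0.341). PEX6, a subunit of the ATPase itself, differed by -0.09 ± 0.18 and 0.07 ± 0.18, and its 9 signals ran from 7.99 to 8.62, the highest being frozen 48 h replicate 1. Of the genes for membrane protein insertion, PEX19, the receptor and chaperone, had signals of 8.42, 8.27 and 8.34 unfrozen, 8.44, 8.42 and 9.43 at 24 h, and 7.61, 8.49 and 9.45 at 48 h. Apart from the 2 replicate 3 arrays, no frozen array exceeded 8.49. PEX3, which docks Pex19 at the membrane, differed by 0.02 ± 0.24 and 0.01 ± 0.24, and was likewise highest, at 8.97 and 9.01, in the frozen replicate 3 arrays.

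PEX11, a promoter of peroxisome division, had the second widest spread of the PEX genes after PEX18, with a pooled SD of 0.75. Its signals were 8.87, 8.72 and 9.63 unfrozen, 9.58, 9.35 and 8.70 at 24 h, and 10.27, 9.47 and 8.06 at 48 h. The differences of 0.14 ± 0.49 and 0.19 ± 0.49 covered opposite deviations within each frozen group, with replicate 3 lowest (limma adjusted p = 0.939 and 0.882). PEX25, PEX27 and PEX34, which also act in division or number, differed by between -0.12 and 0.37. The highest of these, PEX27 at 48 h (0.37 ± 0.20, limma adjusted p = 0.382), rested on replicates 2 and 3 at 7.33 each, since replicate 1 stood at 6.87 within an unfrozen range of 6.69 to 7.0. The lowest, PEX34 at 48 h (-0.12 ± 0.19, limma adjusted p = 0.786), had signals from 9.48 to 9.76 against 9.51 to 10.04 unfrozen. PEX25 had a pooled SD of 0.12, and its 9 arrays lay between 8.79 and 9.11. The genes PEX28 to PEX32 act on peroxisome size and number, and Pex30, Pex31 and Pex32 are proteins of the endoplasmic reticulum. Their differences ran from -0.28 to 0.25 at 24 h, the ends being PEX31 and PEX30. At 48 h they ran from -0.30 for PEX32 to 0.36 for PEX30 (limma adjusted p = 0.426 and 0.494). PEX31 had signals of 8.44, 8.51 and 8.18 unfrozen, 8.12, 8.07 and 8.11 at 24 h, and 8.39, 7.93 and 8.06 at 48 h, so that its 24 h arrays lay below all unfrozen ones. PEX32 had signals of 8.50, 8.32 and 8.47 unfrozen, 8.13, 8.13 and 8.47 at 24 h, and 7.88, 8.22 and 8.30 at 48 h, so that its 48 h arrays did. PEX30, by contrast, overlapped at both times, with unfrozen signals from 7.41 to 7.84 and frozen signals from 7.45 to 8.17. PEX29 lay above the unfrozen arrays on every frozen array, by 0.14 ± 0.17 and 0.31 ± 0.17 (limma adjusted p = 0.815 and 0.402).

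**Figure D3:**
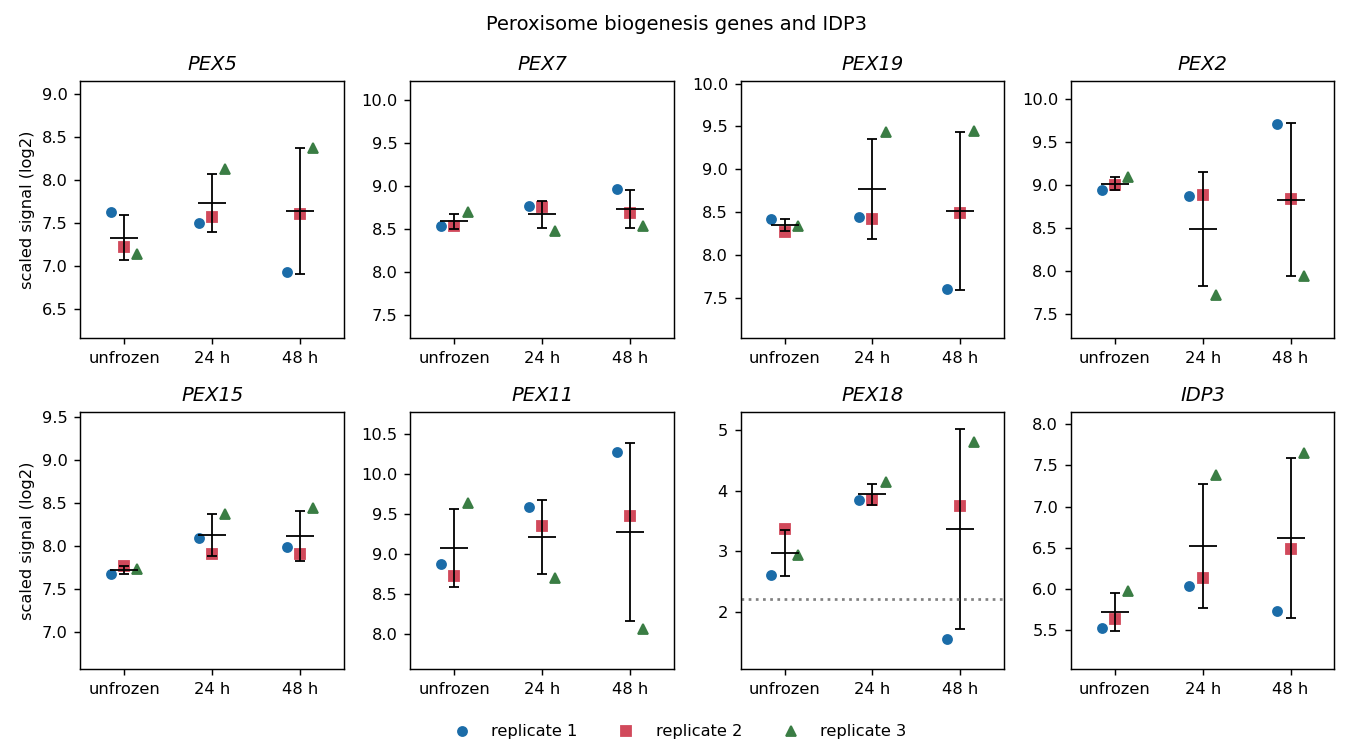
Scaled log2 signal (vertical axis, 1 panel per gene) in unfrozen, 24 h and 48 h arrays for 7 PEX genes and IDP3, with 1 point per array, marked by replicate number, and black bars for mean ± SD (n = 3). The dotted line is the background threshold of 2.21. In PEX19, PEX5 and IDP3 the frozen replicate 3 arrays are highest, and in PEX2 and PEX11 they are lowest.

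Counted by overlap alone, 9 of 40 genes had all 24 h arrays above all unfrozen arrays, where 12.2% of all genes did, and 2 of 40 had them below, where 11.6% did. At 48 h the counts were 6 of 40 above, where 11.9% of all genes were, and 2 of 40 below, where 10.6% were. Above at 24 h were POT1, SPS19, POX1, PIP2, ECI1, IDP3, PEX15, PEX18 and PEX29, and below were PEX2 and PEX31. Above at 48 h were POT1, SPS19, POX1, PIP2, PEX15 and PEX29, and below were PEX32 and DCI1. The 24 h and 48 h comparisons share the 3 unfrozen arrays, so that the same genes recur in part through them. A difference above 0 was found for 32 of 40 genes at 24 h, where 47.3% of all genes had one, and for 29 of 40 at 48 h, where 47% had one. This count depended on scaling, which moves all genes alike. It was 13 of 40 at each time when scaling used every probe set on the array, which moved the all-gene median to -0.34 and -0.37. It was 38 and 39 of 40 in the values as deposited, where the all-gene median moved to 0.28 and 0.40. The share of all genes above 0 under these scalings is not given here. The median of the 40 genes stayed above the all-gene median, at -0.13 and -0.17 with every probe set and 0.49 and 0.60 as deposited.

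The 2 frozen times were compared with each other directly. Of the 40 genes 0 were called higher and 0 lower at 48 h than at 24 h, where limma called 0% of all genes in either direction. At an unadjusted p under 0.05, 0 of the 40 were higher or lower, against 0.241% and 0.167% of all genes. The arrays of the 2 times overlapped for all 40 genes, whereas 1.59% of all genes were apart with 48 h higher and 1.3% with 48 h lower. A difference above 0 was found for 18 of 40, against 52.3% of all genes. Deviations of frozen arrays with the same replicate number correlated, as given below. With the replicate block limma again called 0 genes in all. POT1 differed by 0.21 ± 0.54 between the times, SPS19 by -0.04 ± 0.28 and POX1 by 0.43 ± 0.45. The lowest difference was that of PEX18, -0.57 ± 0.70.

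The frozen replicate 3 arrays stood apart from the other frozen arrays for many of these genes, more often above than below. They stood apart for many of all genes tested as well, but there more often below. The frozen replicate 3 arrays also had the highest deposited medians, 679 and 726, and the lowest 3′ minus 5′ control signals, 0.86 and 0.93. Both arrays lay above the other 4 frozen arrays for 15 of 40 genes, against 20.6% of all genes, and below them for 10 of 40, against 35.1%. For 8 of 40 genes the means of the 2 sets were at least 1 log2 unit apart, against 8.77% of all genes. Higher in replicate 3 by that amount were IDP3 (1.42), PEX18 (1.22), PEX19 (1.20), POT1 (1.18) and POX1 (1.16). Lower by that amount were PEX11 (-1.28), PEX2 (-1.25) and TES1 (-1.02). Unfrozen replicate 3 was the highest unfrozen array for PEX11 and PEX2, of which the frozen replicate 3 arrays were lowest, and also for POT1 and IDP3, of which they were highest. Without both frozen replicate 3 arrays, POT1 and SPS19 were still called at 48 h, while at 24 h POT1 was called and SPS19, at 1.58, was not (limma adjusted p = 0.0589).

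**Figure D4:**
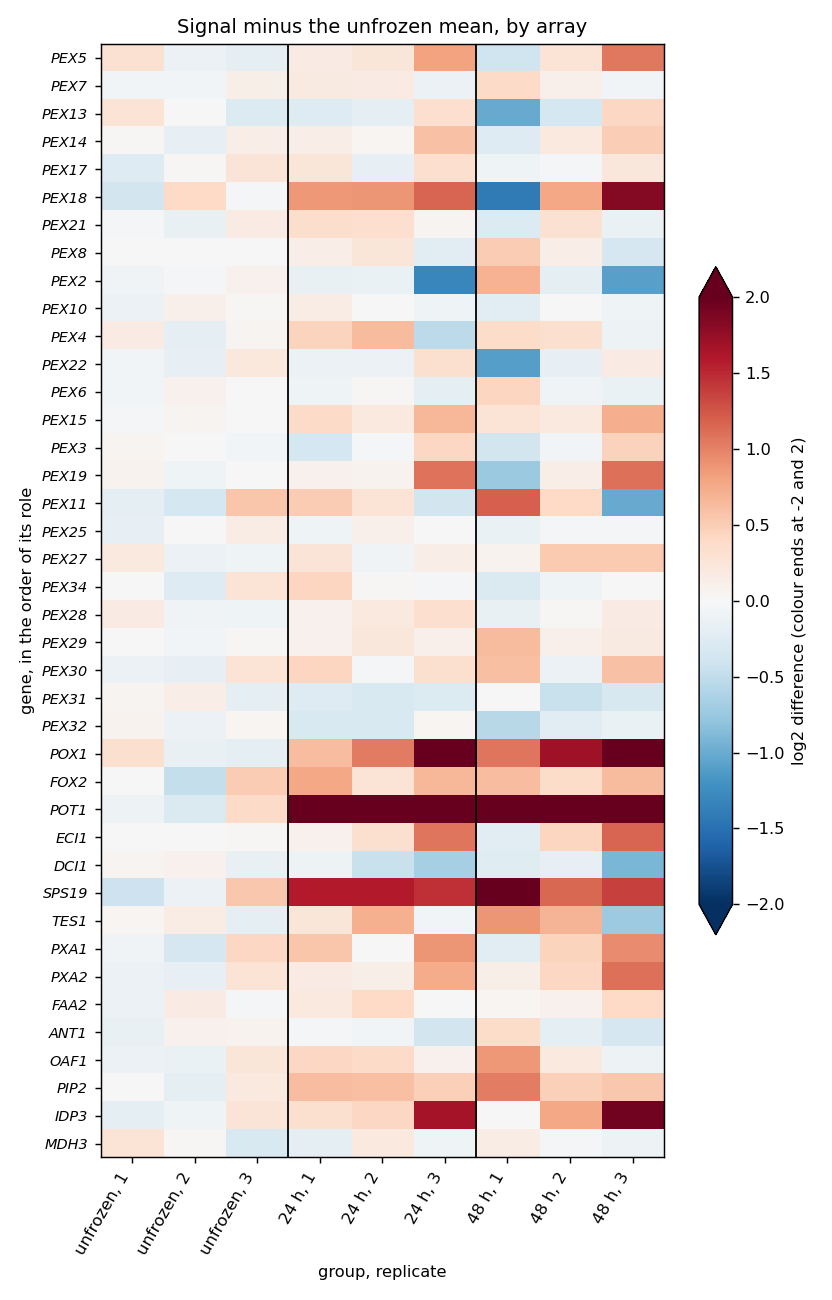
Signal of each of the 40 genes (rows, in the order of their roles) on each of the 9 arrays (columns) minus the mean of its unfrozen arrays, as colour on the log2 scale (red higher, blue lower, colour ends at -2 and 2). POT1, SPS19 and POX1 are red in the 6 frozen columns, and the columns of frozen replicate 3 at 24 h and 48 h look alike, with PEX19 and IDP3 red and PEX2 blue in both.

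Ratios of paralogs within an array do not depend on scaling between arrays, and 8 pairs were compared. The log2 ratio of ECI1 to DCI1 was 1.18, 1.14 and 1.41 in unfrozen arrays, 1.43, 2.00 and 2.97 at 24 h, and 1.26, 1.83 and 3.32 at 48 h. It changed by 0.89 at both times, with no overlap at 24 h only (exact two-sided permutation p = 0.1 and 0.2). The log2 ratio of OAF1 to PIP2 was 0.65, 0.84 and 0.81 unfrozen, 0.57, 0.56 and 0.38 at 24 h, and 0.60, 0.48 and 0.13 at 48 h. All 6 frozen ratios lay below the unfrozen ones, by 0.27 and 0.36 on average (exact two-sided permutation p = 0.1 at each time). An exact test of 3 arrays against 3 cannot give a p below 0.1, so no pair could pass. The ratios of PEX18 to PEX21, PEX25 to PEX27, PEX28 to PEX29, PEX30 to PEX31, PEX31 to PEX32 and PXA1 to PXA2 overlapped between frozen and unfrozen arrays at both times.

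**Figure D5:**
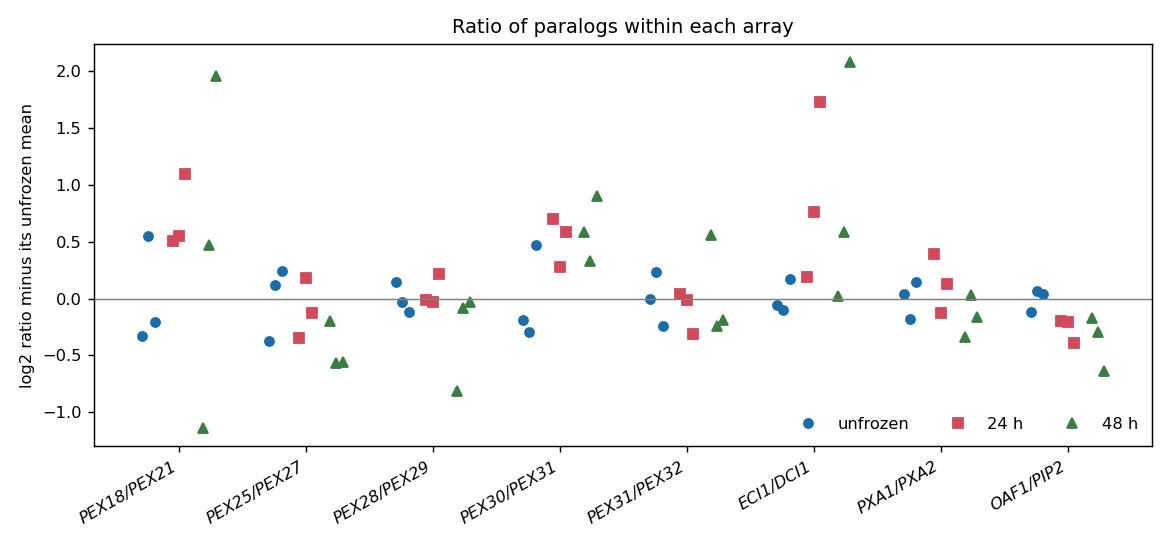
Log2 ratio of the 2 genes of each pair within an array, minus the mean ratio of the unfrozen arrays (vertical axis), for 8 pairs, with 1 point per array (circles unfrozen, squares 24 h, triangles 48 h). The OAF1 to PIP2 ratios of all frozen arrays lie below the unfrozen ones, and the ECI1 to DCI1 ratio is highest in 1 array of each frozen group.

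Other genes of the pathway were counted by list. Of 16 measured genes for further peroxisomal proteins, 0 were called at 24 h and 1 was called higher at 48 h, with medians of 0.20 and 0.33, where 0.797% and 2.09% of all genes were called higher. These counts were not tested as a set. The called gene was CAT2, a carnitine acetyltransferase that moves acetyl units out of peroxisomes. Its signals were 6.73, 6.86 and 7.34 unfrozen, 7.88, 7.65 and 7.77 at 24 h, and 7.92, 7.71 and 8.12 at 48 h. CAT2 rose by 0.94 ± 0.20 at 48 h (limma adjusted p = 0.0381), with 0.79 ± 0.20 at 24 h (limma adjusted p = 0.116). The 48 h call of CAT2 held in 10 of 25 alternatives and was lost without any 1 of 8 arrays, the exception being unfrozen replicate 3 (limma adjusted p from 0.0548 to 0.186). The other losses were those without replicate 1 or 2 in all groups or both frozen replicate 3 arrays, as deposited, with scaling over every probe set, with only the groups compared and with the covariate (limma adjusted p from 0.0763 to 1). CTA1, the peroxisomal catalase, stood at 0.80 ± 0.44 and 1.24 ± 0.44 (limma adjusted p = 0.578 and 0.193), and was highest in the replicate 3 array of each frozen time. Of 10 genes for inheritance, fission and turnover of peroxisomes, 0 were called at either time, with medians of -0.02 and 0.04. That count is near the background (0.797% higher and 0.204% lower at 24 h, 2.09% and 0.815% at 48 h).

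Among 7 regulators of genes that respond to oleate or are repressed by glucose, limma called 1 higher at 24 h and 2 at 48 h, against 0.797% and 2.09% of all genes, with medians of -0.12 and 0.07. ADR1 encodes an activator of glucose-repressed and peroxisomal genes. Its signals were 5.55, 5.56 and 5.13 unfrozen, 6.43, 6.83 and 6.46 at 24 h, and 7.42, 7.39 and 6.63 at 48 h. ADR1 rose by 1.73 ± 0.26 at 48 h (limma adjusted p = 0.00752), a call lost without replicate 1 or 2 in all groups, as deposited and with the ribosomal RNA covariate (limma adjusted p = 0.0954, 0.325, 0.0698 and 0.311). At 24 h ADR1 stood at 1.16 ± 0.26 (limma adjusted p = 0.0735), with no overlap of arrays. CAT8, an activator of gluconeogenic genes, rose by 2.38 ± 0.40 and 2.56 ± 0.40 (limma adjusted p = 0.0228 and 0.00913). Its 24 h call was lost when 1 array was left out, namely replicate 1 or 2 of the unfrozen, 2 or 3 of the 24 h or 2 of the 48 h group (limma adjusted p from 0.0555 to 0.115), and its 48 h call without unfrozen replicate 1 or without replicate 2 in all groups (limma adjusted p = 0.0502 and 0.312). With a pseudocount of 16 the CAT8 differences were 1.23 and 1.36, and with the ribosomal RNA covariate 1.93 and 2.15, and neither call passed in either fit (limma adjusted p = 0.125, 0.0512, 1 and 0.619). The 24 h call was lost as well under quantile normalization, with scaling over every probe set and without replicate 1 or 2 in all groups (limma adjusted p = 0.0753, 0.0561, 0.0705 and 0.583). SNF1, SNF4, MIG1, REG1 and OAF3 had differences from -0.55 to 0.10.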

How the data were processed

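The deposited values are linear-scale intensities, 1 per probe set and array. Per the submitters' processing notes the authors used GCOS, whose version is not given in the sources used here. Per the labels, GeneSpring 7.3.1 then scaled each chip to its 50th percentile and each gene to the controls, but neither step shows in the deposited intensities. All 9 columns were used. Of 10928 probe sets, 5498 had exactly 1 S. cerevisiae gene and 1746 a S. pombe gene. Current symbols came from RefSeq (R64) by gene identifier, which changed 12. No coordinates or sequences were used.

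Each array's log2 intensities were shifted so that its S. cerevisiae probe sets had the common median. A probe set was kept where its mean exceeded 2.21 (4.64 on the linear scale), the 95th percentile of means over S. pombe probe sets, with the brightest per gene. Groups were compared with limma 3.58.1 (R 4.3.3), fitting a mean per group to the 9 arrays, with trended eBayes, two-sided tests and Benjamini-Hochberg adjustment. Single measures were compared with exact permutation tests. Alternatives covered scaling, a pseudocount of 16, the filter, the trend, the arrays fitted, the replicate block, a batch term and the ribosomal RNA signal. The procedure was also run on simulated data with independent noise for each gene and array. Those data lack the deviations shared by frozen replicates and the ribosomal RNA shift, so that run does not bear on their effects.

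Replicate numbers paired the frozen groups with each other. This rests on the data alone, in which deviations from group means correlated at 0.589, 0.389 and 0.793 over all genes. They did not pair frozen with unfrozen arrays (-0.382, 0.247 and -0.117 at 24 h). Given one by one are called genes, oxidation enzymes, entry genes, activators, PEX5, PEX7 and PEX11, and the highest and lowest gene of each other role. PEX29 and the replicate 3 pattern were added after values were seen. The genes and lists were chosen with earlier results of these data known.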

Additional observations from a re-analysis of the deposited data

How the results depend on the processing

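With 9 arrays, calls hung on single arrays, for these genes and over all genes. The 2 calls at 24 h became 1 in the values as deposited, with scaling over every probe set and without both frozen replicate 3 arrays (an alternative added after the data were seen), POT1 being kept and SPS19 lost in each, and 0 with a pseudocount of 16 or the ribosomal RNA covariate. Leaving out single arrays or replicate numbers gave between 0 and 2. Over all genes, calls higher at 24 h in these fits ran from 0, without replicate 2 in all groups, to 87, without frozen 48 h replicate 1. At 48 h they ran from 0, without replicate 2 in all groups, to 172, without replicate 3 in all groups. The 2 calls at 48 h became 1 in the values as deposited and with only the groups compared, SPS19 again being lost, and 0 with the covariate, and leaving out arrays gave between 0 and 2. With replicate 3 as a batch term POX1 joined them. The pseudocount cut the POT1 differences to 1.73 and 1.85, since a pseudocount shrinks differences between low signals. With the replicate block the 2 calls at each time were unchanged, POT1 at 3.87 and 4.08 and SPS19 at 1.54 and 1.5. The 48 h against 24 h comparison gave 0 calls in all 26 alternatives.

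The median difference of the 40 genes at 24 h was 0.15 under quantile normalization and with the pseudocount, 0.49 in the values as deposited, -0.13 with scaling over every probe set and 0.14 with the covariate, and from 0.15 to 0.23 when arrays were left out. At 48 h it was 0.60 as deposited and -0.17 with scaling over every probe set, and from 0.10 to 0.19 when arrays were left out. The sign of the difference changed under at least 1 of 25 alternatives for 27 of 40 genes at 24 h and 28 at 48 h, none of them called. For 12 and 4 of these it did so solely as deposited or with scaling over every probe set, which move all genes alike, and for 15 and 24 under another alternative. POT1, SPS19, POX1, FOX2, ECI1, PXA1, PIP2, IDP3 and PEX15 kept their sign in all of these at both times. The ribosomal RNA signal was higher by 2.94 and 2.66 at 24 h and 48 h, and by 3.23 and 3.08 as deposited. Over all genes the calls higher and lower at 24 h were 43 and 11, against 29 and 5 as deposited, 19 and 45 with scaling over every probe set, 71 and 42 with the replicate block, 83 and 56 with replicate 3 as a batch term and 81 and 37 with only the groups compared. At 48 h they were 113 and 44, against 46 and 8, 57 and 208, 135 and 76, 155 and 82, and 64 and 20 in the same order.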
